A study of Mus musculus with 30 samples.

Results

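T cell genes are described here in mouse hind paw and dorsal root ganglia (DRG): Cd3e, Cd3d, Cd3g, Cd4, Cd8a, Cd2, Lck, Cd5 and Zap70, 9 of the 22609 genes counted. They were chosen by name as genes known to mark T cells, with earlier results of these data known, and all 9 are listed in each of the 30 libraries. The animals were C57BL/6J mice aged 10 to 12 weeks, and the libraries fall into 10 groups of 3. In each of female paw, male paw, female DRG and male DRG there was a group labelled PRL (prolactin) and a group labelled Veh (vehicle). Female paw and female DRG had in addition a group labelled PRL_Sh, whose meaning the labels do not explain. The protocol names injection of PRL (1 µg) or PBS into the paw, as a single dose or once a day for 12 days, without saying which library had which schedule. The PRL and Veh libraries were depleted of rRNA with a KAPA RiboErase kit, while the PRL_Sh libraries were selected for mRNA with a TruSeq kit. The labels do not say whether the 3 libraries of a group came from separate animals, and each p-value then reflects library-to-library spread alone, which may be technical.

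T cells recognise peptides held on MHC molecules with a T cell receptor, whose chains signal through the CD3 proteins. CD4 or CD8 binds the MHC molecule and brings the kinase LCK to the receptor. LCK phosphorylates the CD3 chains, ZAP70 docks on them and passes the signal on, CD2 helps the cell adhere, and CD5 dampens the signal. Skin holds resident T cells of several kinds, and in the uninjured DRG T cells are sparse beside neurons, glia and macrophages.

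The PRL and Veh libraries held 8986530 to 13327072 gene reads in DRG and 6866545 to 13470783 in paw, and the PRL_Sh libraries held 21795035 to 26515208. The lowest of these, male Veh paw replicate 2, stood apart. Gene reads made up 13.6% of its counted total, against 22.3 to 26.2% in the other PRL and Veh paws. Reads without a unique alignment made up 55.5%, against 41.5 to 44.8%. Sex and tissue followed the labels: Xist was at least 231 CPM, or counts per 1e6 gene reads, in every library labelled female and at most 6.33 CPM in every one labelled male. Scn10a, a sodium channel of nociceptors, was at least 872.9 CPM in DRG and at most 1.73 CPM in paw. Skeletal muscle genes varied widely between paw libraries, from a mean log2 CPM of 5.07 to 11.4. At these depths the T cell genes were counted at low levels, with 0 to 130 reads a gene and library.

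The stretches before the start sites are shown for the 3 CD3 genes and Lck, which share a pathway, and for Cd5, whose counts in paw differed least between the arms. The 250 bases before each start come from RefSeq on GRCm38.p6, written 5′ to 3′ on the gene's strand. Capitals mark 5 motifs of factor families active in T cells, searched on both strands: RUNX (TGTGGT), ETS (AGGAAG), TCF/LEF (CTTTGA), the GATA family by its letters AGATAA, and the E-box by its letters CAGGTG.
Cd3e (chr9:45009612-45009861, minus strand): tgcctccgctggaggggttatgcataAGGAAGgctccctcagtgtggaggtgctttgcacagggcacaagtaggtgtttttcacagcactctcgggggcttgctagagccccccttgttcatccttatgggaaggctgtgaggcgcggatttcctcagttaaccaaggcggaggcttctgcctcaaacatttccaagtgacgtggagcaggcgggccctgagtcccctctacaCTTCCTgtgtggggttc
Cd3g (chr9:44980432-44980681, minus strand): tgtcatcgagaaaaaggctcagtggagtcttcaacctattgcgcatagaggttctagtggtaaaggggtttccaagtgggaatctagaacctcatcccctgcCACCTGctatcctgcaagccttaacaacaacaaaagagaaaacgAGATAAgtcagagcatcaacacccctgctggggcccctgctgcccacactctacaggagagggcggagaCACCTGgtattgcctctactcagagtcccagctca
Cd3d (chr9:44981536-44981785, plus strand): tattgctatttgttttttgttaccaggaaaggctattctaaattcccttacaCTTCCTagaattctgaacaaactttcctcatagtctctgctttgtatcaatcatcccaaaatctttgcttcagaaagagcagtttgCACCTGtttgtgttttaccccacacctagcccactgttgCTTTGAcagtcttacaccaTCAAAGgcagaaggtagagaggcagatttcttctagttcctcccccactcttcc
Lck, distal start (chr4:129573642-129573891, minus strand): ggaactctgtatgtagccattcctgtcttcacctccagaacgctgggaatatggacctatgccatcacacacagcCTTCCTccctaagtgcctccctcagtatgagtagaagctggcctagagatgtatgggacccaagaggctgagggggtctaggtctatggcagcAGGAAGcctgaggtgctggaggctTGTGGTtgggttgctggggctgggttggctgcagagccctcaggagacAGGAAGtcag
Lck, proximal start (chr4:129558373-129558622, minus strand): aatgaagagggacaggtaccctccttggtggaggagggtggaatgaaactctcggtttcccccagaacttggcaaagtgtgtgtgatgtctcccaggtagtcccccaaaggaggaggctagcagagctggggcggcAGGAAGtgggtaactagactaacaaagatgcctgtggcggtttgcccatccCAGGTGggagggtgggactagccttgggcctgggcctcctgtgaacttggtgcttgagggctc
Cd5 (chr19:10738975-10739224, minus strand): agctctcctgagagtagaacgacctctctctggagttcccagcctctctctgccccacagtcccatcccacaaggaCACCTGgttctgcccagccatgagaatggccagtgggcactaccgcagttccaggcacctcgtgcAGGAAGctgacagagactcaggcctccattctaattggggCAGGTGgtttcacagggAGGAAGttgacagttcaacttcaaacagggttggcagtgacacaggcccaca

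Of 32851 promoters of the same length in that table, 29.5% held the ETS letters, 17.2% the E-box, 14.1% the RUNX, 13.8% the TCF/LEF and 9.99% the GATA letters at least once. Cd3e had an ETS match 224 and 17 bases before its start. Cd3g had E-box matches at 148 and 35 bases and a GATA match at 104 bases. Cd3d had an ETS match at 198 bases, an E-box match at 112 bases and TCF/LEF matches at 73 and 54 bases. The distal Lck stretch held ETS matches at 175, 82 and 10 bases and a RUNX match at 58 bases, whereas the proximal one held an ETS match at 114 bases and an E-box match at 63 bases. Cd5 had E-box matches at 174 and 69 bases and ETS matches at 109 and 52 bases. None of these matches overlapped another. Cd8a had no match in its window, and Zap70 held 4, 3 and 1 matches at its 3 starts. Cd4 and Cd2 were not in the table. A match is a description of the letters, and binding was not measured.

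The genes sit apart in the genome except for the CD3 cluster on chromosome 9. There, Cd3g and Cd3d start 1355 bases from each other and are read in opposite directions, and the start of Cd3e lies 27825 bases from that of Cd3d. In GRCm38 Cd3e spans chr9:44998740-45009627, and it overlaps Gm48719, an antisense gene, and Gm48720 on its own strand. Lck, at chr4:129548344-129573641, overlaps the microRNA gene Mir8119 on its own strand. Zap70, at chr1:36761798-36782818, overlaps the pseudogene Gm18828 on the other strand. The strand setting of the counting is not given in the sources used here, so reads of these genes and of their partners may not be told apart. For partners on the same strand, no strand setting would separate the reads.

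In female paws, 4 T cell genes were about 6 times as abundant with PRL as with Veh: Cd3e, Cd4, Cd2 and Lck rose 5.97-, 5.84-, 5.80- and 5.77-fold. In male paws the same 4 genes rose, Cd4 by 7.09-fold, Cd3e by 6.05-fold, Lck by 4.60-fold and Cd2 by 3.01-fold. Cd5 did not pass the test in either sex, with 1.65-fold in females and 1.11-fold in males, and neither did Zap70 or Cd3g. Cd3d and Cd8a had too few reads to pass the filter on low counts. In each sex, 7 of the 9 genes were tested and 4 of 9 were called higher, with none lower. Of all 14721 genes tested, 6.54% were called higher in females and 12.3% in males, and 7.55% and 22.4% were called in either direction. The filter keeps a gene that is high in only 1 group, so the tested genes are not a neutral selection of the 9. The call was an adjusted p under 0.05 in edgeR's quasi-likelihood test with Benjamini-Hochberg adjustment over all genes. In bulk tissue, more cells of a type and more RNA per cell cannot be told apart.

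Cd3e encodes the CD3 epsilon chain. It had 43, 17 and 23 reads in female PRL paws, against 6, 3 and 5 reads in female Veh paws. Male PRL paws had 14, 33 and 18 reads, against 3, 3 and 4 reads in male Veh paws. Every PRL library lay above every Veh library of its sex, also after normalisation by TMM, a scaling for library size and composition. The level was 2.49 ± 1.03 CPM in female PRL paws and 0.413 ± 0.144 CPM in female Veh paws (SD, n = 3 each). It was 1.96 ± 0.860 CPM in male PRL paws and 0.339 ± 0.123 CPM in male Veh paws. The log2 change was 2.58 ± 0.46 (SE; edgeR adjusted p = 0.00537) in females and 2.60 ± 0.51 (edgeR adjusted p = 0.00436) in males.

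The other CD3 chains, gamma and delta, were scarcer. Cd3g had 9, 11 and 12 reads in female PRL paws, against 4, 3 and 6 reads in female Veh paws, and the groups did not overlap. In males, PRL paws had 3, 20 and 6 reads, against 2, 0 and 4 reads in male Veh paws, and here the groups overlapped in CPM. Its log2 change was 1.34 ± 0.67 (edgeR adjusted p = 0.288) in females and 2.18 ± 0.78 (edgeR adjusted p = 0.0652) in males. The male value was 1.11 without PRL replicate 2 and 3.01 without Veh replicate 3. Cd3d had 7, 2 and 5 reads in female PRL paws, against 3, 2 and 0 reads in female Veh paws. Cd3d in male PRL paws had 6, 10 and 7 reads, against 4, 0 and 0 reads in male Veh paws. Male groups were apart and female groups overlapped for Cd3d. Summed over 3 libraries and scaled by the TMM library sizes, the ratio of Cd3d reads, PRL over Veh, was 2.93 in females (95% exact binomial interval 0.998 to 10.4). It was 5.61 (1.92 to 22.3) in males. Such intervals cover counting error only.

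Cd4, the coreceptor of helper and regulatory T cells, which is also found on some myeloid cells, had the most reads of the 9 genes in PRL paws. It had 130, 59 and 62 reads in female PRL paws, against 14, 15 and 15 reads in female Veh paws. In male PRL paws it had 76, 79 and 52 reads, against 13, 6 and 9 reads in male Veh paws. The arms were far apart in both sexes. The level averaged 7.54 ± 3.02 CPM in female PRL paws and 1.29 ± 0.0728 CPM in female Veh paws (SD, n = 3 each). It averaged 6.23 ± 1.04 CPM in male PRL paws and 0.877 ± 0.124 CPM in male Veh paws. This gave a log2 change of 2.54 ± 0.29 (edgeR adjusted p = 0.00054) in females and 2.83 ± 0.32 (edgeR adjusted p = 0.000179) in males.

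Cd8a encodes the coreceptor of cytotoxic T cells. It had 13, 3 and 14 reads in female PRL paws, against 0, 0 and 2 reads in female Veh paws. Male PRL paws had 1, 2 and 3 reads, against 1, 1 and 1 reads in male Veh paws. The female groups did not overlap and the male groups did. The ratio of summed reads, scaled by the TMM library sizes, was 15.7 (95% exact binomial interval 3.99 to 135.6) in females and 1.95 (0.417 to 12.1) in males. Tested with no filter on low counts, Cd8a had an edgeR adjusted p of 0.0280 in females and of 0.635 in males. Whether the Cd8a reads came from T cells was not tested.

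Lck, the kinase bound to CD4 and CD8, had 63, 28 and 45 reads in female PRL paws, against 4, 8 and 12 reads in female Veh paws. In males, PRL paws had 22, 47 and 14 reads, against 6, 4 and 7 reads in male Veh paws. The arms did not overlap in either sex. Lck averaged 4.10 ± 1.31 CPM in female PRL paws and 0.707 ± 0.373 CPM in female Veh paws (SD, n = 3 each). It averaged 2.48 ± 1.47 CPM in male PRL paws and 0.546 ± 0.0924 CPM in male Veh paws. The log2 change was 2.53 ± 0.48 (edgeR adjusted p = 0.00699) in females and 2.20 ± 0.52 (edgeR adjusted p = 0.0116) in males. In males this call was lost without Veh replicate 1 (edgeR adjusted p = 0.0516), and the value was 1.58 without PRL replicate 2.

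Zap70, the kinase that docks on phosphorylated CD3, had 20, 12 and 24 reads in female PRL paws, against 7, 4 and 15 reads in female Veh paws, and these groups overlapped. In male PRL paws it had 21, 21 and 27 reads, against 6, 8 and 11 reads in male Veh paws, and the male groups did not overlap. Zap70 had a log2 change of 1.15 ± 0.48 (edgeR adjusted p = 0.197) in females and 1.37 ± 0.48 (edgeR adjusted p = 0.0591) in males.

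Cd2, an adhesion receptor of T and NK cells, had 46, 30 and 37 reads in female PRL paws, against 7, 7 and 6 reads in female Veh paws. Male PRL paws had 35, 39 and 18 reads, against 10, 3 and 17 reads in male Veh paws. The arms were far apart in females and close in males, where the lowest PRL library had 1.75 CPM and the highest Veh library 1.39 CPM. This gave a log2 change of 2.54 ± 0.38 (edgeR adjusted p = 0.00173) in females and 1.59 ± 0.36 (edgeR adjusted p = 0.00942) in males.

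Cd5, the receptor that dampens T cell receptor signals and is also found on some B cells, had 48, 36 and 56 reads in female PRL paws, against 31, 37 and 21 reads in female Veh paws. In males, PRL paws had 25, 36 and 14 reads, against 35, 7 and 26 reads in male Veh paws. In CPM the female groups lay apart by a small gap, and the male groups overlapped. The log2 change was 0.72 ± 0.34 (edgeR adjusted p = 0.251) in females and 0.16 ± 0.36 (edgeR adjusted p = 0.788) in males. In males its sign turned without PRL replicate 2 or without Veh replicate 2. Cd5 took 12.7 to 20.1% of the reads of the 9 genes in female PRL paws and 25.6 to 46.8% in female Veh paws. In males it took 8.81 to 12.5% in PRL paws and 21.9 to 43.8% in Veh paws. The difference between Cd5 and the other genes was not tested.

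**Figure D1:**
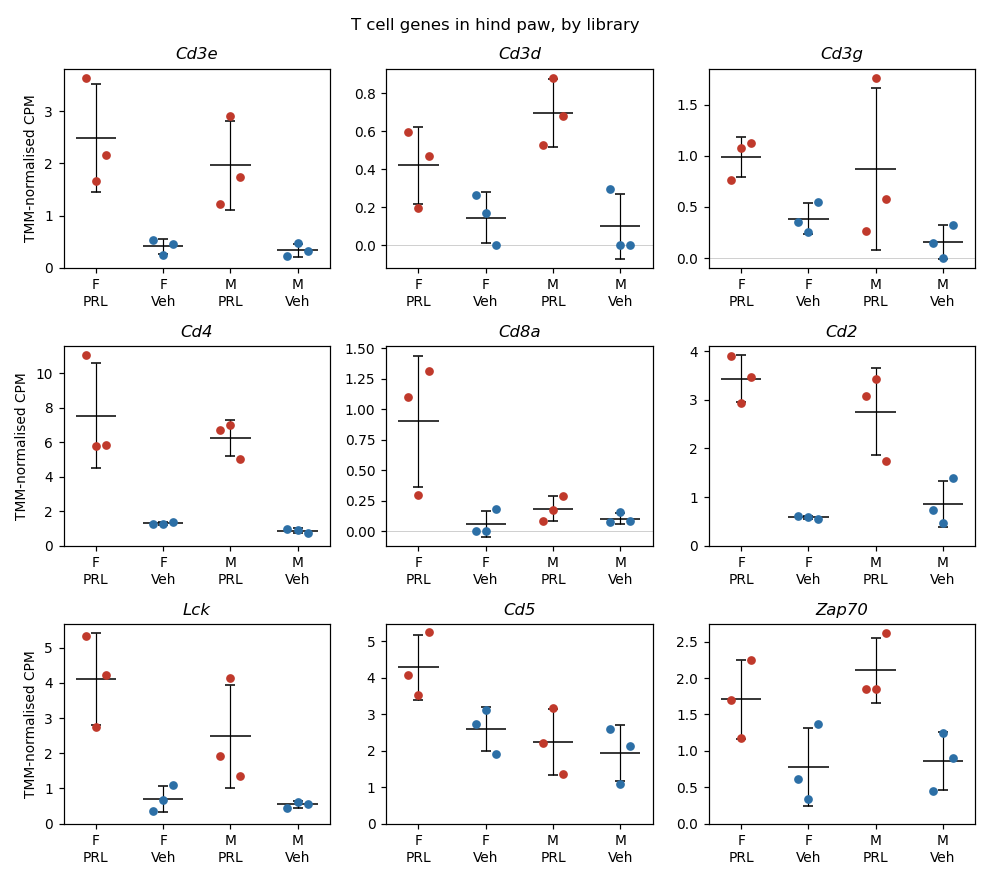
Each of 9 panels plots 1 T cell gene in paw as TMM-normalised CPM for PRL (red) and Veh (blue) libraries of females (F) and males (M); points are libraries, long lines are means and whiskers are 1 SD (n = 3). Cd4 lies between 5.04 and 11.0 CPM in PRL paws of both sexes and between 0.734 and 1.37 CPM in Veh paws, while the arms of Cd5 lie close together.

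Over all 9 genes, the mean was higher with PRL in both sexes. In females 7 of the 9 did not overlap between the arms, all but Cd3d and Zap70. In males 6 of the 9 did not overlap, all but Cd3g, Cd8a and Cd5. The same held for 14.7% of all tested genes in females and 21.7% in males, counting genes that lay higher with PRL. These shares cover only genes that passed the filter. The counts of the 9 include Cd8a in females and Cd3d in males, which did not. Summed, the 9 genes made up 19.8 to 33.9 CPM of gene reads in female PRL paws and 6.92 to 7.68 CPM in female Veh paws. In males they made up 14.98 to 25.2 CPM in PRL paws and 4.66 to 6.34 CPM in Veh paws.

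The change did not pass a test of difference between the sexes for any of the 7 tested genes, as the female log2 change minus the male one. The differences were -0.02 ± 0.48 for Cd3e, -0.28 ± 0.44 for Cd4, 0.95 ± 0.53 for Cd2 and 0.33 ± 0.75 for Lck (SE). They were -0.84 ± 1.06 for Cd3g, 0.57 ± 0.49 for Cd5 and -0.22 ± 0.69 for Zap70. The edgeR adjusted p ran from 0.456 for Cd2 to 0.992 for Cd3e. No member reached an unadjusted p of 0.05 in edgeR, a count of 0. At an adjusted p under 0.05 the count with DESeq2 was likewise 0. Across all genes 0.00679% were called in this comparison, a single gene. With standard errors of 0.44 to 1.06, these libraries do not show that the sexes respond alike.

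**Figure D2:**
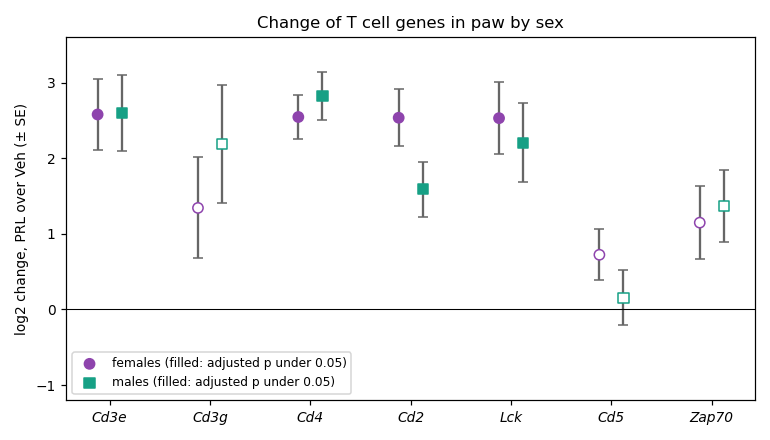
Points give the log2 change in paw, PRL over Veh, from edgeR for the 7 tested T cell genes in females (circles) and males (squares), with whiskers of 1 SE; filled marks have an adjusted p under 0.05. Cd3e, Cd4, Cd2 and Lck are filled in both sexes, with changes between 1.59 and 2.83, and Cd5 lies nearest to 0.

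Set against gene length, the order of the 9 genes differed between the arms. Levels per kilobase of exon (GRCm38) are means of 3 libraries on the scale of CPM of gene reads. In female PRL paws Cd2 led with 3.09 CPM per kb, before Cd4 with 2.52, Lck with 1.84 and Cd3e with 1.77 CPM per kb. The libraries of these neighbours overlapped, Cd2 spanning 2.60 to 3.57 and Cd4 1.89 to 3.74 CPM per kb. In female Veh paws Cd5 led with 0.858 CPM per kb, before Cd2 with 0.524 and Cd4 with 0.429 CPM per kb. The lowest Cd5 library there, at 0.630 CPM per kb, stood above the highest Cd2 library, at 0.554 CPM per kb. In male PRL paws the order was led by Cd2 with 2.28, Cd4 with 1.92 and Cd3e with 1.30 CPM per kb. In male Veh paws Cd2 led with 0.735 CPM per kb, before Cd5 with 0.608 CPM per kb, and their libraries overlapped. Cd8a and Cd3d were the lowest in all 4 of these groups.

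Ptprc rose in the same paws. This gene, which encodes CD45 and marks all leukocytes, was 107.5 ± 1.43 CPM in female PRL paws and 38.7 ± 1.89 CPM in female Veh paws (SD, n = 3 each). It was 110.2 to 142.0 CPM in male PRL paws and 38.0 ± 2.10 CPM in male Veh paws. Per Ptprc read, the 9 genes had 0.301, 0.182 and 0.239 reads in female PRL paws, against 0.167, 0.168 and 0.205 reads in female Veh paws. In male PRL paws they had 0.162, 0.178 and 0.126 reads per Ptprc read, against 0.160, 0.124 and 0.176 in male Veh paws. On this scale the arms overlapped in both sexes. The sum includes Cd5, which took 25.6 to 46.8% of it in female Veh paws and 21.9 to 43.8% in male Veh paws. Single genes were not set against Ptprc. The log2 change of Ptprc was 1.47 ± 0.097 (SE) in females and 1.72 ± 0.098 in males. Cd3e, Cd4, Cd2 and Lck had 2.53 to 2.58 in females and 1.59 to 2.83 in males. Their difference from Ptprc was not tested.

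Of 14 tested macrophage and monocyte genes, 13 rose in females, and in males 12 rose and 1 fell. Over all tested genes the share called higher was 6.54% in females and 12.3% in males, to be set beside this list and those below. Their summed level was 1623 to 2494 CPM in female PRL paws and 767.0 to 1032 CPM in female Veh paws. In males it was 1802 to 2161 CPM in PRL paws and 938.2 to 1424 CPM in Veh paws. Some macrophages and dendritic cells carry CD4, and the part of this in the Cd4 values was not tested. The NK cell list summed to 7.68 to 12.2 CPM in female PRL paws and 3.65 to 7.10 CPM in female Veh paws. In males it summed to 4.85 to 13.9 CPM in PRL paws and 2.33 to 3.61 CPM in Veh paws. Of 2 tested NK genes none passed in females and 1, Klrk1, rose in males. The B cell and plasma cell list summed to 3.76 to 6.40 CPM in female PRL paws and 0.936 to 1.55 CPM in female Veh paws, where Pax5, Cd22 and Cr2 had no read. In males it summed to 4.61 to 6.50 CPM in PRL paws and 1.28 to 2.04 CPM in Veh paws, with Cr2 at 0 in Veh. Of 3 tested genes of that list 1 rose in females and 2 in males. Cd22 was among them in both sexes, with 0 reads in female and 2 in male Veh paws. It passed the filter on low counts through PRL libraries alone. Of 6 tested mast cell genes none passed in either sex.

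**Figure D3:**
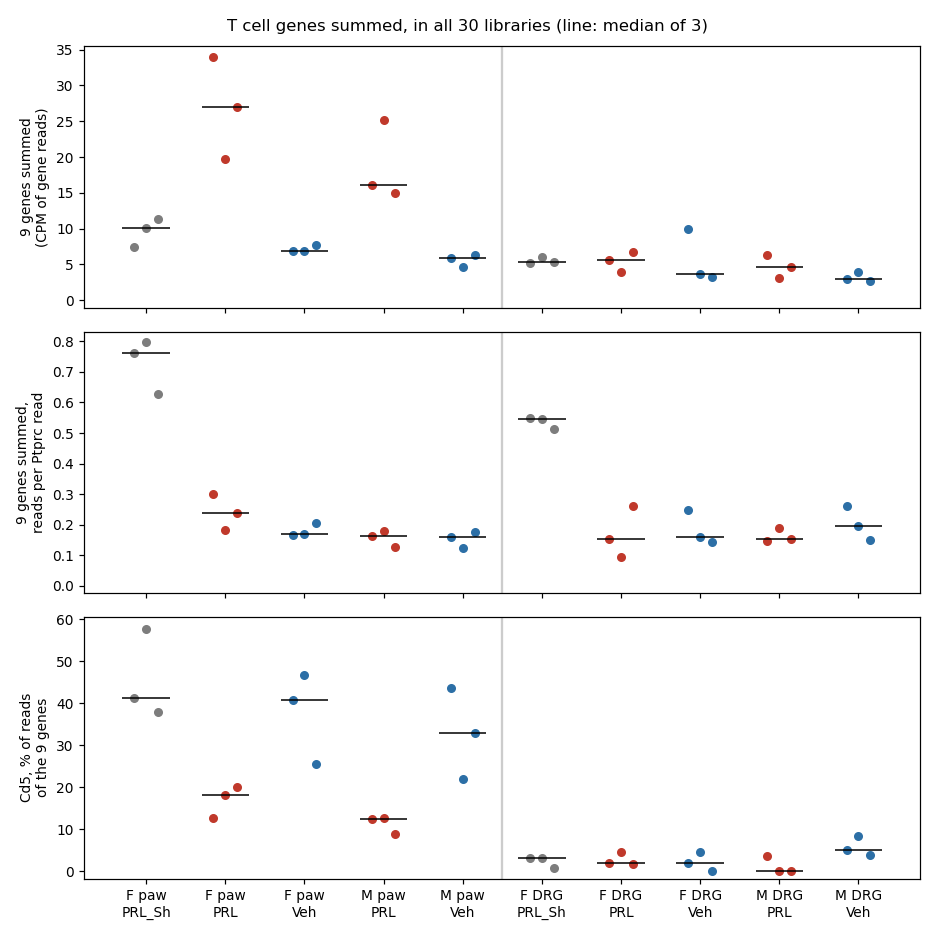
The 3 panels plot, for all 30 libraries, the summed level of the 9 T cell genes (CPM of gene reads), their reads per Ptprc read and the share of their reads that is Cd5 (percent); points are libraries, lines are medians of 3, with PRL_Sh in grey, PRL in red and Veh in blue. The sum is 14.98 to 33.9 CPM in PRL paws and 4.66 to 7.68 CPM in Veh paws, whereas in DRG no library exceeds 9.90 CPM.

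T cell genes outside the 9 were counted in 6 further lists, which hold 77 genes, beside a list of gamma-delta and epidermal T cell genes. Of these 72 were in the files and 49 passed the filter in paw. In females 23 of the 49 rose and none fell, and in males 27 rose and 3 fell. The filter keeps a gene that is high in only 1 group. The tested genes of these lists, and of the lists of other cells, are thus no neutral selection. Among those that rose, Foxp3 had 6 and 5 reads in female and male Veh paws, summed over 3 libraries, and Cd6 had 9 and 3. The chosen lists share genes with other leukocytes, above all the signalling and receptor lists.

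Of 13 tested signalling genes downstream of the receptor, 7 rose in females and 6 in males, with a median log2 change of 1.02 in females and 1.18 in males, beside -0.01 and 0.02 over all genes. Cd6, a receptor related to CD5, had 64 reads in female PRL paws and 9 in female Veh paws, summed over 3 libraries, and rose by 2.84 ± 0.46 on the log2 scale (SE; edgeR adjusted p = 0.00287). In males it had 46 reads in PRL paws and 3 in Veh paws, a log2 change of 3.73 ± 0.58 (edgeR adjusted p = 0.00126). Lcp2, an adaptor phosphorylated by ZAP70 that also works in myeloid cells, rose by 1.35 and 2.06 on the log2 scale in females and males.

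Of 9 tested genes for costimulation and checkpoints, 5 rose in females and 6 in males, with a median log2 change of 0.94 in females and 1.496 in males. Ctla4, an inhibitory receptor, was 4.51 ± 1.45 CPM in female PRL paws and 0.809 ± 0.394 CPM in female Veh paws (SD, n = 3 each; edgeR adjusted p = 0.00214). Cd28, the main costimulatory receptor, was 4.99 ± 0.878 CPM in female PRL paws and 1.14 ± 0.311 CPM in female Veh paws (edgeR adjusted p = 0.00288). Icos, a costimulatory receptor of activated T cells, rose by 1.46 ± 0.38 in females and 1.99 ± 0.41 in males on the log2 scale.

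Of 12 tested cytokine and homing receptors, 5 rose in females, and in males 8 rose and 1 fell. The median log2 change was 1.36 in females and 1.79 in males. Il2ra, the alpha chain of the IL-2 receptor, was 6.35 ± 0.963 CPM in female PRL paws and 1.07 ± 0.443 CPM in female Veh paws (SD, n = 3 each; edgeR adjusted p = 0.00045). In males it was 4.91 ± 0.779 CPM in PRL paws and 1.22 ± 0.177 CPM in Veh paws (edgeR adjusted p = 0.000711). Il2rg, the chain shared by several interleukin receptors, rose by 1.96 in females and 1.98 in males on the log2 scale.

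Transcription factors were split. Of 10 tested, 3 rose in females, and in males 3 rose and 2 fell, with a median log2 change of 0.04 in females and 0.07 in males. Foxp3, the factor that defines regulatory T cells, had 57 reads in female PRL paws and 6 in female Veh paws, summed over 3 libraries. In males it had 55 reads in PRL paws and 5 in Veh paws. Its level was 1.73 ± 0.316 CPM in female PRL paws and 0.176 ± 0.00747 CPM in female Veh paws (SD, n = 3 each; edgeR adjusted p = 0.00135). In males it was 1.64 ± 0.600 CPM in PRL paws and 0.158 ± 0.0854 CPM in Veh paws (edgeR adjusted p = 0.000713). Tcf7, a factor of naive and memory T cells that other cells of the skin also use, fell in males by 1.01 on the log2 scale (edgeR adjusted p = 0.00496). It was 5.79 ± 1.27 CPM in male PRL paws and 11.6 ± 0.196 CPM in male Veh paws. In females Tcf7 was 8.84 ± 2.28 CPM in PRL paws and 8.70 ± 0.375 CPM in Veh paws.

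Of 12 listed cytotoxic and effector genes, 4 were tested. In females 3 rose, namely Gzmb, Ccl5 and Nkg7, and these and Gzma rose in males. All 4 passed the filter on low counts through PRL libraries alone, so low Veh levels were built into this selection. Ccl5 had 5 reads in female Veh paws and 3 in male Veh paws, summed over 3 libraries. Nkg7 had 4 and 2 reads there. Gzmb, a protease of cytotoxic granules, had 69 reads in female PRL paws and 6 in female Veh paws, and 74 reads in male PRL paws and 1 in male Veh paws. Gzma, a second granule protease, had 39 reads in female PRL paws and 47 in male PRL paws, with no read in any Veh paw of either sex, and it passed the test in males (edgeR adjusted p = 0.0220) but not in females. NK cells also make both proteases. Of 2 tested genes of the gamma-delta and epidermal T cell list, none passed in females and 1, Cd163l1, rose in males by 1.20 on the log2 scale (edgeR adjusted p = 0.0361). The remaining receptor chain and coreceptor list, Cd247 and Cd8b1 in these files, had 1 tested gene, Cd247. It did not pass in either sex, with a log2 change of 0.84 in females and 0.70 in males.

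The genes whose pattern over the 12 PRL and Veh paw libraries was most like the mean profile of the 7 tested T cell genes were Itgal, Arhgap9, Irf8, Gbp8 and H2-DMb1. Likeness was the root mean square difference of centred log2 CPM, which was 0.23 for Itgal and 0.25 for H2-DMb1. The median over all genes was 0.893. The T cell genes themselves ranged from 0.36 for Cd3e and Cd2 to 0.71 for Cd5. Itgal, the alpha chain of the leukocyte integrin LFA-1, had 195, 97 and 146 reads in female PRL paws, against 47, 41 and 40 reads in female Veh paws. In male PRL paws it had 115, 170 and 93 reads, against 35, 26 and 35 reads in male Veh paws. The 12 libraries belong to 2 arms and differ in depth, and the likeness is a description.

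The PRL_Sh paws were set against the PRL paws of females, where the kit differs along with the label, so the 2 cannot be told apart. In this comparison 58.5% of all tested genes were called in either direction and 29% lower. Of the T cell genes, 4 of 7 tested were lower in PRL_Sh, namely Cd3e, Cd4, Cd2 and Lck. Of other lists, 12 of 14 macrophage and monocyte genes and 5 of 6 mast cell genes were lower, while 8 of 17 skeletal muscle genes were higher, with a median log2 change of 2.69 over the 17. The muscle genes had a mean log2 CPM of 10.3 to 11.4 in PRL_Sh paws, against 5.07 to 9.69 in PRL paws, and the part of these lists in the result was not tested. Cd4 had 14, 7 and 17 reads in PRL_Sh paws, against 130, 59 and 62 reads in PRL paws, although the PRL_Sh libraries held more reads. Its log2 change was -3.78 ± 0.42 (SE; edgeR adjusted p = 0.000382). For Cd2 the log2 change was -3.18 ± 0.53 (edgeR adjusted p = 0.00200), for Cd3e -2.85 ± 0.40 (edgeR adjusted p = 0.000972) and for Lck -1.75 ± 0.33 (edgeR adjusted p = 0.00337). Without PRL_Sh replicate 3 the Cd2 value was -4.14.

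Cd5 and Zap70 did not pass the test between these groups, and Cd3g did not either (edgeR adjusted p = 0.155). Cd5 had 71, 127 and 95 reads in PRL_Sh paws, against 48, 36 and 56 reads in PRL paws, a log2 change of -0.03 ± 0.29 (edgeR adjusted p = 0.931). Zap70 had 44, 35 and 46 reads in PRL_Sh paws, against 20, 12 and 24 reads in PRL paws, a log2 change of 0.06 ± 0.31 (edgeR adjusted p = 0.879). The sign of either turned when single libraries were left out. Cd5 made up 37.8 to 57.7% of the reads of the 9 genes in PRL_Sh paws. Ptprc was 9.73 to 18.1 CPM of gene reads in PRL_Sh paws, against 108.3 to 112.8 CPM in PRL paws, and the 9 genes had 0.628 to 0.797 reads per Ptprc read in PRL_Sh paws.

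In DRG the T cell genes were low in every group. Summed, they made up 4.02 to 6.74 CPM of gene reads in female PRL DRG and 3.32 to 9.90 CPM in female Veh DRG. In males they made up 3.07 to 6.34 CPM in PRL DRG and 2.70 to 4.01 CPM in Veh DRG. PRL_Sh DRG held 5.27 to 6.01 CPM. Female Veh replicate 1 stood apart with 102 reads of the 9 genes, against 44 and 34 reads in the other Veh libraries. The 3 CD3 genes together had 12, 5 and 5 reads in female PRL DRG, and 25, 2 and 1 reads in female Veh DRG. Cd5 had at most 3 reads in any PRL or Veh DRG library, unlike in paw, where it had 7 to 56.

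**Figure D4:**
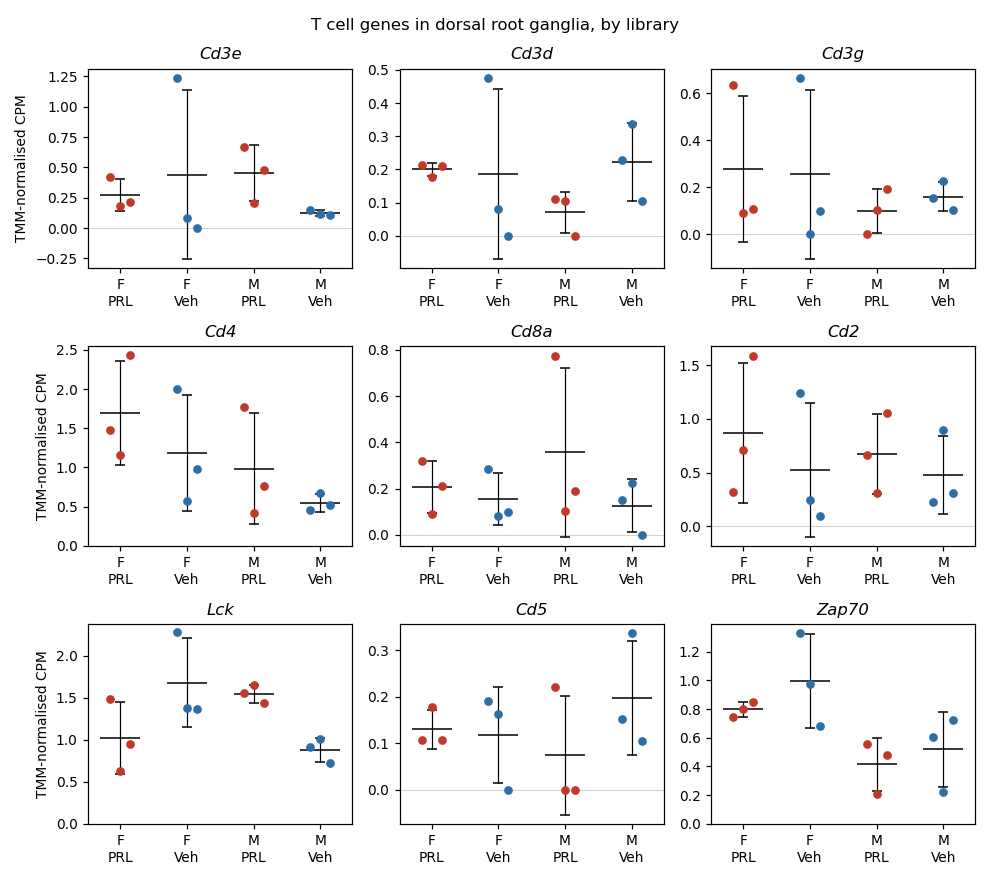
Each of 9 panels plots 1 T cell gene in DRG as TMM-normalised CPM for PRL (red) and Veh (blue) libraries of females (F) and males (M); points are libraries, long lines are means and whiskers are 1 SD (n = 3), some of which reach below 0. The arms overlap in every female panel, and in males Cd3e and Lck alone lie apart.

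Only Cd4, Cd2 and Lck passed the filter in DRG, and edgeR called none of them in either sex. Of all 14705 genes tested, 0.653% were called in females and 0.517% in males. At an unadjusted p under 0.05 there were 0 members in females and 1, Lck, in males, and DESeq2 gave no adjusted p for these genes. Cd4 had 14, 13 and 23 reads in female PRL DRG, against 21, 7 and 10 reads in female Veh DRG. In male PRL DRG it had 16, 4 and 8 reads, against 6, 6 and 5 reads in male Veh DRG. These groups overlapped in both sexes, with a log2 change of 0.52 ± 0.51 (edgeR adjusted p = 0.711) in females and 0.83 ± 0.62 (edgeR adjusted p = 0.575) in males. For Cd2 the log2 change was 0.73 ± 0.80 (edgeR adjusted p = 0.744) in females and 0.58 ± 0.86 (edgeR adjusted p = 0.795) in males. Without female Veh replicate 1, the female values were 2.23 ± 0.90 (edgeR adjusted p = 0.264) for Cd2 and 1.13 ± 0.55 (edgeR adjusted p = 0.325) for Cd4.

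Lck had the most reads of the 9 genes in 3 of the 4 PRL and Veh groups of DRG, with Cd4 ahead in female PRL DRG. It had 14, 7 and 9 reads in female PRL DRG, against 24, 17 and 14 reads in female Veh DRG. In male PRL DRG it had 14, 16 and 15 reads, against 12, 9 and 7 reads in male Veh DRG. Whether these reads came from T cells was not tested. The level was 1.02 ± 0.433 CPM in female PRL DRG and 1.68 ± 0.529 CPM in female Veh DRG (SD, n = 3 each). In males it was 1.55 ± 0.110 CPM in PRL DRG and 0.882 ± 0.144 CPM in Veh DRG, without overlap. This gave a log2 change of -0.72 ± 0.35 (edgeR adjusted p = 0.431) in females and 0.80 ± 0.36 (edgeR adjusted p = 0.318) in males. Cd3e was the other gene without overlap in CPM in male DRG, with 6, 2 and 5 reads in PRL libraries, against 2, 1 and 1 reads in Veh libraries. PRL replicate 2 and Veh replicate 1 both had 2 Cd3e reads, which gave 0.207 and 0.152 CPM. Cd3e was not tested in DRG, and the shares that follow cover tested genes only. Of all genes tested, 9.62% lay higher without overlap in male PRL DRG and 7.8% in female PRL DRG.

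None of 30 tested T cell genes of the other lists was called in DRG in either sex. In PRL_Sh DRG, Lck had 47, 43 and 53 reads, against 14, 7 and 9 reads in PRL DRG, from deeper libraries of the other kit. Of 3 tested T cell genes Zap70 was called lower, with a log2 change of -0.98 ± 0.36 (edgeR adjusted p = 0.0425). In this comparison 61.6% of all genes were called in either direction and 32.3% lower, and the Zap70 call was lost in most alternatives. Without PRL replicate 1 it was Lck that was called, as higher (edgeR adjusted p = 0.0244). Lck had a log2 change of 0.74 ± 0.31 (edgeR adjusted p = 0.0727) and Cd4 one of -0.61 ± 0.31 (edgeR adjusted p = 0.118).

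The PRL change in paw was set against that in DRG in a fit of the 24 PRL and Veh libraries, a comparison added after the data were seen. The difference is the log2 change in paw minus that in DRG. In females it was called for Lck, at 3.27 ± 0.60 (SE; edgeR adjusted p = 0.00411), and for no other of the 7 tested T cell genes. For Cd4 it was 2.03 (edgeR adjusted p = 0.0646) and for Cd3e 3.24 (edgeR adjusted p = 0.115). In males it was called for none, with 1.42 for Lck (edgeR adjusted p = 0.172) and 2.02 for Cd4 (edgeR adjusted p = 0.0775). Of 15949 genes tested, 3.4% were called in females and 10.9% in males, of which 2.97% and 6.32% of all genes were higher. The female count was 542 genes, and it lay between 301 (without female DRG PRL replicate 1) and 896 (without female paw PRL replicate 3) when single libraries were left out. Skeletal muscle genes had a median difference of -3.81 in females, where none of 17 was called and 13 had an unadjusted p under 0.05. With the muscle level as a covariate the female Lck difference was 3.18 (edgeR adjusted p = 0.0179). For the other genes called in paw, a difference from DRG was not shown at these depths.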

How the data were processed

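RNA from DRG and hind paw was sequenced as single reads of 50 nt in 30 libraries. The deposited values are raw read counts per gene for 22609 genes, with 5 summary lines left out of all totals. The submitters' processing notes name bcl2fastq, TopHat2, HTSeq and the assembly mm9. The way HTSeq was run is not given in the sources used here, nor are versions. Groups were taken from the titles. The labels give 18 female and 12 male libraries, the series text 18 males and 12 females, and Xist and Ddx3y followed the labels.

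The members and gene lists were chosen with earlier results of these data known. For PRL against Veh, edgeR 4.0.16 (R 4.3.3) was fitted to the 12 rRNA-depleted libraries of a tissue with filterByExpr, TMM and the quasi-likelihood F test, adjusted by Benjamini and Hochberg over all genes, with a threshold of 0.05. PRL_Sh was compared with PRL in fits of 6 libraries. The SE is the log2 change divided by the square root of F. All 9 members were named, with up to 4 genes past the threshold per list by p and the 5 genes most like the members (log2 CPM, prior count 2). Gzma in females was named after its values were seen. Gene spans and exon lengths come from GRCm38, not the build of the counts. As alternatives, each library was left out in turn, and DESeq2 1.42.0, RLE, unfiltered counts, a 1 CPM minimum in 3 libraries, a replicate block, a muscle covariate and fits of the groups compared were used. The fits were tested on simulated data in which 200 genes changed 2-fold. In female and male paw, 61.4% and 62.3% of these were recovered, and 22.4% and 27.6% of those at low levels. In female and male DRG it was 78.4% and 76.9%, and 35.1% and 29.3% at low levels. For the sex difference it was 23.6%, and 3.12% at low levels. At low levels like those of the T cell genes, most 2-fold changes were thus missed.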

Additional observations from a re-analysis of the deposited data

Results flagged for a closer look

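Lck differed between the tissues in females: its PRL change was 3.27 higher on the log2 scale in paw than in DRG (SE 0.60; edgeR adjusted p = 0.00411). A test of that difference, chosen after the data were seen, brought it here. The log2 change was 2.53 ± 0.48 in female paw and -0.72 ± 0.35 in female DRG, from the fits of each tissue. In female Veh DRG, Lck had 24, 17 and 14 reads, where the 3 CD3 genes together had 25, 2 and 1. In female PRL DRG, Lck had 14, 7 and 9 reads and the CD3 genes 12, 5 and 5. Whether the Lck reads in DRG came from T cells was not tested. The call held in 30 of 30 alternatives, with adjusted p from 0.000405 to 0.0179, the highest with the muscle covariate. Skeletal muscle genes moved with this comparison: the median difference of the 17 was -3.81 on the log2 scale, and their median PRL change in female DRG was 3.38, with none of 17 called and 17 at an unadjusted p under 0.05. In males the same difference was 1.42 (edgeR adjusted p = 0.172).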

How the results depend on the processing

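Cd3e, Cd4 and Cd2 were called higher in PRL paws of both sexes in 19 of 19 alternatives, Lck in 19 of 19 in females and 18 of 19 in males. The number of T cell genes called was 4 to 5 in females and 3 to 5 in males when single libraries were left out, 0 throughout for the difference between the sexes and for DRG, 4 to 6 for PRL_Sh paws, and 0 to 1 for PRL_Sh DRG, where the call without PRL 1 was Lck. For PRL_Sh DRG it was 0 with DESeq2, with no filter, with 1 CPM in 3 libraries and with the replicate block. For paw minus DRG it was 2 in females with DESeq2, 1 to 2 in females and 0 to 1 in males when single libraries were left out. Male Zap70 was called in 4 of 19 alternatives (adjusted p from 0.0383 to 0.212) and male Cd3g in 1 of 18. The cause of these shifts was not tested.

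These log2 values changed sign when 1 library was left out, and are given as the lowest and highest over such fits. Cd5 in male paw ran from -0.21 (without PRL 2; -0.09 without Veh 2) to 0.41. In the sex difference Cd3e ran from -0.41 to 0.41 and was 0.0095 with no filter, Cd3g ran from -1.67 to 0.22, and Zap70 from -0.59 to 0.46. In PRL_Sh paws Cd5 ran from -0.29 to 0.18 and Zap70 from -0.15 to 0.28. In female paw minus DRG, Cd3g ran from -0.94 (without female DRG Veh 1) to 2.57. The values with the sign turned did not pass the test.

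Over all genes, 1111 were called in female paw, against 597 with the groups compared only and 579 to 652 without PRL 1, Veh 2 or Veh 3. Of the 1111, 148 were lower, against 493 of 1619 with the muscle covariate and 378 of 1505 without PRL 3. In male paw 3301 were called, against 2017 without PRL 3. In DRG 96 were called in females and 76 in males, against 208 and 305 with DESeq2 and 36 and 42 with the muscle covariate. When single libraries were left out, there were 20 to 171 calls in female DRG, 25 to 144 in male DRG and 0 to 6 for the sex difference. In female DRG 34 were called with the groups compared only. Female paw minus DRG had 542 calls, 334 with the muscle covariate and 301 to 896 when single libraries were left out. The sex difference had 1 call, 158 with DESeq2 and 6 with the muscle covariate. No pairing by replicate number was seen: same-numbered libraries of 2 groups had correlations from -0.564 to 0.446, and 0 of 10 pairs of groups had every one over 0.1. With 3 libraries a group, this cannot exclude that same-numbered libraries share an animal or a batch. The replicate block called 4 T cell genes in female paw, 5 in male paw, 4 in PRL_Sh paws and 1 in female paw minus DRG. Genes with few reads limit all of this: Cd3d and Cd8a were untested in paw, and 6 of 9 in DRG.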

Other observations

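Genes of antigen-presenting cells, which show peptides to T cells, also rose in paw. Of 10 tested dendritic cell genes, 5 rose in females and 6 in males, beside 6.54% and 12.3% of all tested genes. Batf3, a factor of cross-presenting dendritic cells, had 98 reads in female PRL paws and 16 in female Veh paws, summed over 3 libraries, and 97 reads in male PRL paws and 7 in male Veh paws. The filter on low counts keeps a gene that is high with PRL alone. Itgax, the integrin chain CD11c, was 29.2 ± 1.88 CPM in female PRL paws and 7.22 ± 0.305 CPM in female Veh paws, and 38.9 ± 9.64 CPM in male PRL paws and 4.83 ± 0.690 CPM in male Veh paws (SD, n = 3 each). Ccl22, a chemokine that attracts CCR4-bearing T cells, rose by 1.25 ± 0.31 in females and 1.45 ± 0.34 in males on the log2 scale (edgeR adjusted p = 0.0299 and 0.0106).

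Neutrophil genes rose in 1 of 6 tested in females and 4 of 6 in males, beside 6.54% and 12.3% of all tested genes. Csf3r, the receptor for the neutrophil growth factor G-CSF, was 24.6 ± 12.0 CPM in female PRL paws and 7.33 ± 1.26 CPM in female Veh paws, and 26.4 ± 2.39 CPM in male PRL paws and 3.36 ± 0.353 CPM in male Veh paws (SD, n = 3 each). S100a9, an abundant neutrophil protein, had 315 to 2938 reads in male PRL paws, a spread set by a single library, and 34 to 123 reads in male Veh paws. The difference between the sexes did not pass the test for any gene of these lists.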
